A study of Homo sapiens with 4 samples.

Results

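Ferroptosis is a form of cell death in which iron-dependent peroxidation of polyunsaturated phospholipids outruns their repair. Expression of 10 genes that supply or oxidize these phospholipids, or that suppress the process, was examined in pancreatic cancer cells given cannabichromene (CBC), a phytocannabinoid. The genes were GPX4, AIFM2, DHODH, GCH1, ACSL3, ACSL4, LPCAT3, POR, SAT1 and PTGS2. They were taken by symbol from the 58233 Ensembl identifiers of the count table, leaving out other ferroptosis genes such as those of iron and heme, and all 10 were found.

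Both lines, MIA PaCa-2 and PANC-1, derive from human pancreatic cancers and are labelled WT. Poly(A) RNA was sequenced after 24 h with CBC or with PBS, and each condition had 1 library (4 in all), so values within a line come without replicates. By the study's methods, MIA PaCa-2 received 35 μM and PANC-1 30 μM CBC. The methods name acetonitrile as the solvent of CBC. The control is labelled PBS but called a vehicle control in the methods, and if it held no acetonitrile, CBC and its solvent cannot be told apart. The libraries held 21742775 to 27903667 counts on genes. All 6 epithelial markers reached 1 CPM (a count relative to the scaled size of its library) in some library, although EPCAM and CDH1 were at 0 in the MIA PaCa-2 control. None of the 5 acinar, 4 islet and 4 leukocyte markers did so, against 1 of 3 endothelial and 3 of 5 fibroblast markers. The fibroblast markers summed to 46.4 to 371 CPM, nearly all from COL1A2 in MIA PaCa-2 and COL1A1 in PANC-1, each lower with CBC. DCN and LUM were at 0. The most abundant epithelial markers, KRT8, KRT18 and KRT19, were also lower with CBC in both lines. KRT7 in MIA PaCa-2 and CDH1 in PANC-1, at low levels, were higher. The part of these markers in the results was not tested. Mitochondrially encoded genes took 5.81% (PBS) and 3.86% (CBC) of the MIA PaCa-2 counts and 4.63% and 2.42% of the PANC-1 counts. Leaving them out of the scaling changed no call on the 10 genes.

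ACSL4 loads long polyunsaturated fatty acids onto coenzyme A, LPCAT3 inserts them into membrane phospholipids, and enzymes such as POR help to oxidize them. Separate defences meet the resulting peroxides. GPX4 reduces phospholipid hydroperoxides with glutathione, AIFM2 (FSP1) and DHODH regenerate reduced coenzyme Q at the plasma membrane and in mitochondria, GCH1 opens the synthesis of tetrahydrobiopterin, and ACSL3 supplies monounsaturated fatty acids that displace the oxidizable ones. SAT1, of polyamine breakdown, and PTGS2, of prostaglandin synthesis, are often read as genes that respond in ferroptotic cells.

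With CBC, AIFM2 rose and LPCAT3 fell over both lines, GPX4 differed by less than counting error, and SAT1 was 13.5-fold higher in MIA PaCa-2 but level in PANC-1. The upstream sequences of AIFM2, LPCAT3 and SAT1 are shown because these genes carried those differences. Each holds the 250 bases before the RefSeq start (GRCh38.p14), 5′ to 3′ in lower case, with capitals for matches to the 4 motifs searched on both strands.
AIFM2 upstream sequence, chr10:70132826-70133075, minus strand: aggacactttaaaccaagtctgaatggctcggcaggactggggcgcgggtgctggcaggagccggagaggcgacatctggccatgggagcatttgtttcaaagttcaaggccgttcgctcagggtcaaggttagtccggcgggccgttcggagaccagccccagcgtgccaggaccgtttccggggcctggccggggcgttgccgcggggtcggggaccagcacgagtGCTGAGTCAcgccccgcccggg
LPCAT3 upstream sequence, chr12:7018477-7018726, minus strand: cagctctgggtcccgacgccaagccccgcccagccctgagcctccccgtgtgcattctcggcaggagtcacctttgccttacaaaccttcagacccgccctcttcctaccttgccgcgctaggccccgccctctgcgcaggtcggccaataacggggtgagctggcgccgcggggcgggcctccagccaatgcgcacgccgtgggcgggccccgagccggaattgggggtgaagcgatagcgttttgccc
SAT1 upstream sequence, chrX:23782923-23783172, plus strand: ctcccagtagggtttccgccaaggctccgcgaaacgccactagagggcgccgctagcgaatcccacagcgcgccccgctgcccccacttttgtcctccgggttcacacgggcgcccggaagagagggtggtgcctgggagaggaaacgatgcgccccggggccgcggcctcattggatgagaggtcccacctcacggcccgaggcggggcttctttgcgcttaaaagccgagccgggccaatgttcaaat
The motifs were the antioxidant response element core TGACNNNGC, the AP-1 site TGANTCA, the C/EBP-ATF response element TGATGNAA and the E-box CACGTG. The capitals in the AIFM2 sequence are 1 antioxidant response element core on the reverse strand, whose leftmost base lies at -22 from the start, and 1 AP-1 site at -20 that overlaps it. Of 35116 promoters of this length, 10.9% held that core and 6.57% an AP-1 site. Promoter entries existed for 8 of the 10 genes (not GCH1 and POR). AIFM2 was the 1 gene of these with the core, DHODH had 1 E-box (in 6.34% of promoters), and none had TGATGNAA (3.14%). A match describes letters in this window and does not show that a factor binds.

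Among the defence genes, AIFM2 was called over both lines, and GPX4, DHODH, GCH1 and ACSL3 were not. GPX4 (ENSG00000167468, chromosome 19, 1103982 to 1106791, GRCh38) stood at 205 (PBS) against 207 CPM (CBC) for MIA PaCa-2, and 182 against 178 CPM for PANC-1. All 4 libraries thus lay close together. The log2 fold change was 0.013 (95% counting interval -0.045 to 0.071) for MIA PaCa-2 and -0.033 (-0.093 to 0.027) for PANC-1. These intervals are exact binomial ones for the ratio of 2 counts and cover counting error only. Across the processing alternatives GPX4 ranged from -0.0024 to 0.078 and from -0.062 to 0.037, so its sign depended on the setting. Over both lines it was at -0.0034 (standard error 0.19, adjusted p = 0.995, edgeR's quasi-likelihood test with cell line as a block).

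AIFM2 (ENSG00000042286, chromosome 10, 70098223 to 70132934), the coenzyme Q reductase, stood at 18.7 (PBS) against 83.1 CPM (CBC) for MIA PaCa-2, and 41.4 against 95.5 CPM for PANC-1. Both CBC libraries lay above both controls. The log2 fold changes were 2.15 (1.998 to 2.31) and 1.20 (1.10 to 1.31). Over both lines AIFM2 rose by 1.68 on the log2 scale (standard error 0.29, adjusted p = 0.0230, the same edgeR test). Exons of MACROH2A2 on the opposite strand cover 19.2% of the AIFM2 exon bases, and MACROH2A2 itself stood at 9.62 (PBS) against 8.73 CPM (CBC) for MIA PaCa-2, and 0.484 against 0.915 CPM for PANC-1.

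DHODH, the mitochondrial enzyme that passes electrons from pyrimidine synthesis to ubiquinone, stood at 22.0 (PBS) against 17.3 CPM (CBC) for MIA PaCa-2, and 15.4 against 14.1 CPM for PANC-1. Its log2 fold change was -0.35 (-0.54 to -0.16) for MIA PaCa-2, whereas the PANC-1 interval included 0 (-0.34 to 0.085), and the adjusted p was 0.694. GCH1, the least abundant tested gene in CPM, gave 121 and 375 counts in MIA PaCa-2 and 94 and 171 in PANC-1. Both CBC libraries lay above both controls in CPM. The log2 fold changes of GCH1 were 1.46 (1.18 to 1.79) and 0.59 (0.23 to 0.98). Its change of 1.05 over both lines (standard error 0.40) was not called by edgeR (adjusted p = 0.183).

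ACSL3, which activates monounsaturated fatty acids, stood at 151 (PBS) against 66.9 CPM (CBC) for MIA PaCa-2, and 112 against 75.8 CPM for PANC-1. Both CBC libraries lay below both controls. The log2 fold changes were -1.17 (-1.26 to -1.09) and -0.57 (-0.65 to -0.49). The change of -0.86 over both lines (standard error 0.23) missed the threshold in edgeR (adjusted p = 0.0792) and passed it in DESeq2 with the same block (adjusted p = 0.0253).

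**Figure D1:**
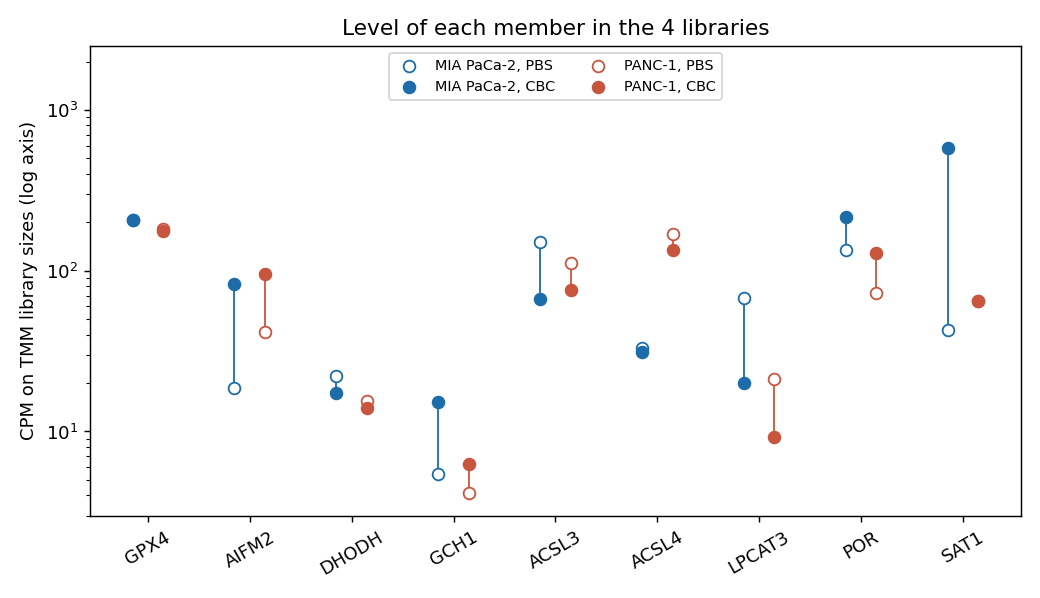
Level of the 9 tested genes in each library, in CPM on TMM library sizes (log axis), with open circles for PBS, filled circles for CBC, and a line joining the libraries of a cell line. AIFM2, GCH1 and POR are higher and ACSL3 and LPCAT3 lower with CBC in either line, while SAT1 is at 43.1 and 581 CPM in MIA PaCa-2 and its PANC-1 circles coincide at 64.5 CPM.

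Of the genes that build oxidizable phospholipids, LPCAT3 fell and ACSL4 was not called. LPCAT3 (ENSG00000111684, chromosome 12, 6976185 to 7018477), the lysophospholipid acyltransferase, stood at 67.4 (PBS) against 19.97 CPM (CBC) for MIA PaCa-2, and 21.1 against 9.19 CPM for PANC-1. Both CBC libraries lay below both controls, with a narrow gap between CBC-treated MIA PaCa-2 and the PANC-1 control. The log2 fold changes were -1.75 (-1.90 to -1.61) and -1.19 (-1.42 to -0.97), and over both lines LPCAT3 fell by 1.47 on the log2 scale (standard error 0.27, adjusted p = 0.0280, edgeR's quasi-likelihood test).

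Exons of EMG1, a ribosome biogenesis gene on the opposite strand, cover 66.0% of the LPCAT3 exon bases. The library kit was directional, but whether strand was used in counting is not given in the sources used here, so reads of LPCAT3 and EMG1 may not be fully separated. EMG1 had log2 fold changes of 0.30 (0.17 to 0.43) and 0.064 (-0.14 to 0.27), so it was not lower with CBC as LPCAT3 was.

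ACSL4 (ENSG00000068366, chromosome X, 109624244 to 109733403), the synthetase for arachidonic and adrenic acid, stood at 33.2 (PBS) against 31.3 CPM (CBC) for MIA PaCa-2, and 169 against 135 CPM for PANC-1. Either PANC-1 library lay far above either MIA PaCa-2 library. The log2 fold changes with CBC were -0.086 (-0.23 to 0.061) and -0.32 (-0.39 to -0.26), with an adjusted p of 0.647 over both lines.

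POR (ENSG00000127948, chromosome 7, 75899200 to 75986855), which passes electrons from NADPH to microsomal cytochromes P450, stood at 135 (PBS) against 216 CPM (CBC) for MIA PaCa-2, and 72.7 against 129 CPM for PANC-1. The CBC library was the higher one in each line, but the groups overlapped, since the MIA PaCa-2 control lay above CBC-treated PANC-1. On the log2 scale, CBC minus PBS was 0.67 (0.61 to 0.74) and 0.83 (0.74 to 0.91). The change of 0.76 over both lines (standard error 0.20) was not called by edgeR (adjusted p = 0.0765) but was by DESeq2 (adjusted p = 0.0107).

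SAT1 (ENSG00000130066, chromosome X, 23783173 to 23786210), which acetylates spermidine and spermine, gave 958 counts with PBS and 14383 with CBC in MIA PaCa-2, but 1467 and 1763 in PANC-1. CBC-treated MIA PaCa-2 stood apart at 581 CPM, the other 3 libraries lying between 43.1 and 64.5 CPM. The log2 fold change was 3.75 (3.66 to 3.85) for MIA PaCa-2, and the PANC-1 interval ran from -0.10 to 0.10. The change of 1.89 over both lines (standard error 0.84) was not called (adjusted p = 0.249 in edgeR), except without a filter on low counts (adjusted p = 3.62e-10). SAT1 was level in PANC-1, so that call does not show a response in both lines.

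The profiles most like that of SAT1 were those of ISG15 (distance 0.60), DNAJB9 (0.67) and ZNF165 (0.83). The measure was the Euclidean distance of log2 CPM centred on each gene's mean, over 4 libraries, among 10067 genes averaging 10 CPM or more. ISG15, an interferon-induced ubiquitin-like protein, stood at 11.8 (PBS) against 168 CPM (CBC) for MIA PaCa-2, and 29.4 against 24.8 CPM for PANC-1. DNAJB9, a chaperone of the endoplasmic reticulum, stood at 10.6 (PBS) against 105 CPM (CBC) for MIA PaCa-2, and 16.8 against 22.4 CPM for PANC-1. ZNF165, a zinc finger protein, stood at 5.40 (PBS) against 50.6 CPM (CBC) for MIA PaCa-2, and 3.61 against 4.79 CPM for PANC-1.

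PTGS2, the inducible cyclooxygenase (COX-2), had 0 counts in 3 libraries and 3 counts (0.11 CPM) in CBC-treated PANC-1. A count of 0 allows up to 3 counts, or 0.121 to 0.135 CPM in those 3 libraries, so no difference was detectable at this depth and no fold is given. PACERR, on the opposite strand, covers 3.99% of its exon bases and had 1 count in that library.

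By the study's threshold, a log2 fold change past 1, applied to genes reaching 1 CPM in either library of a line, 9 of the 10 genes could be read. In MIA PaCa-2, 3 of them were higher (AIFM2, GCH1, SAT1) and 2 lower (ACSL3, LPCAT3), beside 11.5% and 8.97% of all genes (20.5% in either direction). In PANC-1, 1 was higher (AIFM2) and 1 lower (LPCAT3), beside 7.71% and 7.03% of all genes (14.7% in either direction). AIFM2 and LPCAT3 thus passed in both lines, where 3.33% of all genes were higher and 2.98% lower. The median log2 fold change of the 9 genes was 0.013 in MIA PaCa-2 and -0.033 in PANC-1, beside -0.014 and 0.02 over all genes. Counting intervals lay off 0 in the same direction in both lines for 5 genes, 3 higher (AIFM2, GCH1, POR) and 2 lower (ACSL3, LPCAT3), beside 23.2% and 24.9% of the genes tested in both lines.

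The edgeR test over both lines called 1 of the 9 genes higher and 1 lower, beside 2.26% and 2.45% of 16381 genes (4.71% in either direction), and 5 of the 9 had an unadjusted p under 0.05, as had 20.9% of all genes. It rests on lines given different doses, with 1 residual degree of freedom, and without cell line as a block it called 0 of all genes (354 at an unadjusted p under 0.05). Its p-values draw on the spread between the responses of the lines, not between cultures of a line. For each gene, edgeR pools that spread with a value shared over genes, which weighs more (6.77 prior degrees of freedom). A p-value thus reflects how far the lines agree on that gene only in part.

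**Figure D2:**
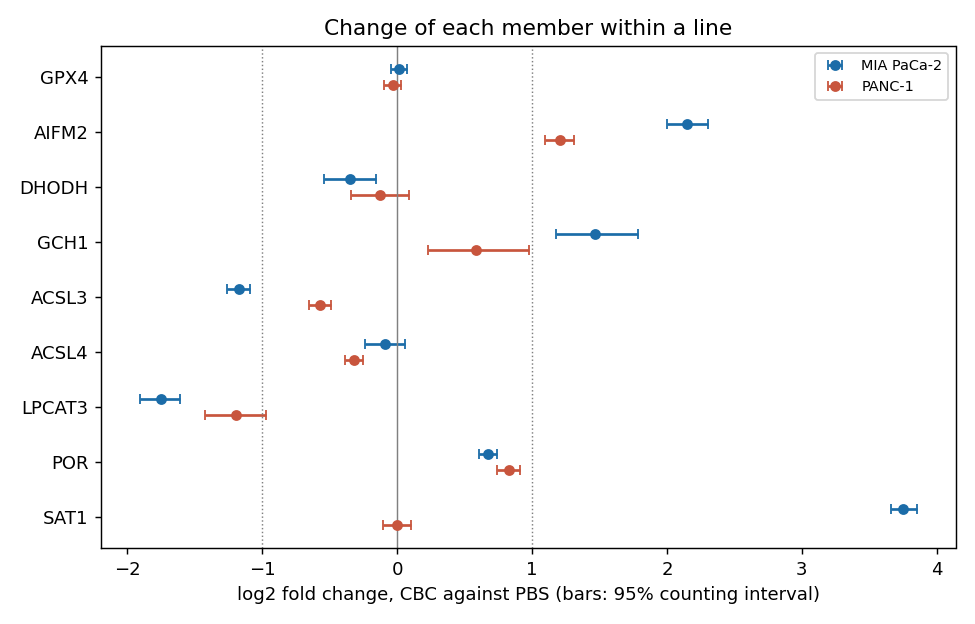
Log2 fold change of CBC against PBS for the 9 tested genes in MIA PaCa-2 (blue) and PANC-1 (red), with bars for the 95% counting interval and dotted lines at 1 and -1. AIFM2 (2.15 and 1.20) and LPCAT3 (-1.75 and -1.19) lie past the dotted lines in both lines, and the points of SAT1 lie farthest apart, by 3.75.

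The log2 fold changes differed between the lines (MIA PaCa-2 minus PANC-1) by 3.75 for SAT1 (counting standard error 0.0701), 0.94 for AIFM2 (0.0950) and 0.88 for GCH1 (0.24). For the genes lower with CBC the differences were -0.60 for ACSL3 (0.0608) and -0.56 for LPCAT3 (0.14), and POR gave -0.15 (0.0542). None of these could be tested, since giving each line its own response leaves no residual degree of freedom.

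The lines themselves differed in 3 of the 9 genes in edgeR's test of PANC-1 against MIA PaCa-2, with treatment as a block, 1 of them higher in PANC-1 and 2 lower, beside 25.1% and 21.7% of all genes (46.7% in either direction). ACSL4 was the higher one, at 2.17 (standard error 0.22, adjusted p = 0.000210). LPCAT3, at -1.46 (standard error 0.27, adjusted p = 0.00351), and POR, at -0.88 (standard error 0.20, adjusted p = 0.00856), were lower in PANC-1. GPX4, at -0.26 (standard error 0.19, adjusted p = 0.292), was not called. EMG1, which shares exon bases with LPCAT3, was also lower in PANC-1, at -1.54 (standard error 0.26, adjusted p = 0.00222).

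Levels of different genes were compared per length of their joined exons, in TPM. GPX4 was the highest of the 10 in 3 libraries, at 421 TPM in the MIA PaCa-2 control and at 373 and 413 TPM in PANC-1. In CBC-treated MIA PaCa-2 it was SAT1, at 970 TPM, that lay above GPX4 at 467 TPM. GCH1 was the lowest tested gene in both controls, at 7.01 and 5.34 TPM. The order of neighbouring levels has no spread over replicates to be read against.

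Ratios within a library do not depend on the scaling between libraries. The ratio of GPX4 to AIFM2 in TPM was 30.7 (PBS) and 6.97 (CBC) in MIA PaCa-2, and 12.2 and 5.19 in PANC-1. The ratio of ACSL4 to ACSL3, the synthetases for polyunsaturated and monounsaturated acids, was 0.319 and 0.677, then 2.17 and 2.58, in the same order. ACSL3 was the more abundant of this pair in MIA PaCa-2 and ACSL4 in PANC-1. The ratio of LPCAT3 to ACSL4 was 4.32 and 1.36 in MIA PaCa-2 and 0.266 and 0.145 in PANC-1, lower with CBC in each line. The LPCAT3 level per length carries the limit given above for exon bases shared with EMG1. A level is a share of a culture's RNA, and fewer cells and less RNA per cell cannot be told apart.

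**Figure D3:**
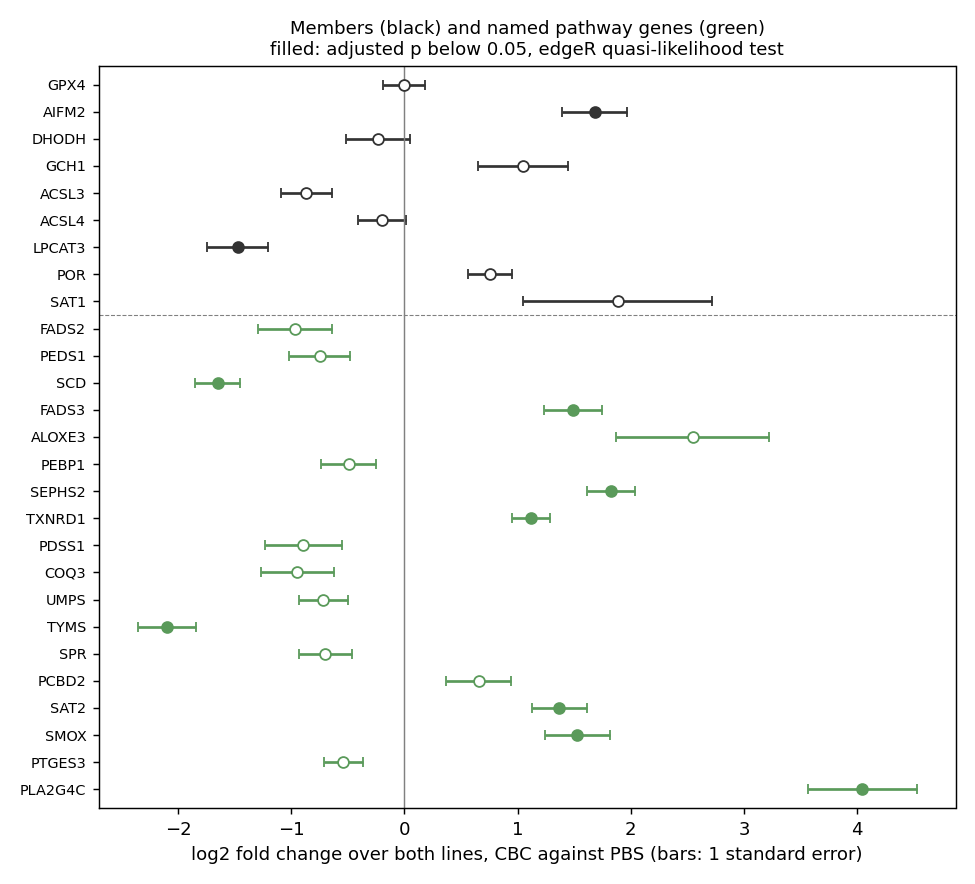
Log2 fold change of CBC against PBS over both lines, with bars for 1 standard error, for the 9 tested genes (black) and the 18 named genes of the same pathways (green). Points are filled where the adjusted p was below 0.05 in edgeR's quasi-likelihood test, which holds among the black points for AIFM2 (1.68) and LPCAT3 (-1.47), and the bar of SAT1 (0.84) is the widest of the black ones.

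The 9 lists of other genes in these pathways held 116 genes, of which 97 were tested over both lines, 6 rose and 2 fell. Of all 16381 genes tested by edgeR, 2.26% rose, 2.45% fell and 20.9% had an unadjusted p under 0.05. DESeq2 called 615 of 13492 genes higher and 756 lower. These figures over all genes go with each list below. Of 15 tested genes that activate, elongate or desaturate fatty acids or make plasmalogens, edgeR called 0, although 5 had an unadjusted p under 0.05 and DESeq2 called 0 higher and 1 lower (ELOVL5). Their median log2 fold change was -0.38, beside 0.02 over all genes. ELOVL7, a fatty acid elongase, went the other way, with log2 fold changes of 2.21 and 0.89 (adjusted p = 0.106 in edgeR). It had 22 and 51 counts in PANC-1. FADS2, the delta-6 desaturase on the way to arachidonic acid, stood at 28.4 (PBS) against 20.9 CPM (CBC) for MIA PaCa-2, and 47.5 against 16.8 CPM for PANC-1 (adjusted p = 0.141, or 0.0197 without a filter on low counts). PEDS1, the plasmalogen desaturase, had log2 fold changes of -0.49 and -1.01, the latter -0.94 with library totals as the scaling.

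Of the 8 genes of monounsaturated lipid supply and related protection, 1 rose and 1 fell, with a median of -0.52, and DESeq2 called 2 higher and 2 lower (adding MBOAT1 and the SCD relative SCD5, the latter at -1.29 in the edgeR fit). SCD, the desaturase that makes oleic and palmitoleic acid, stood at 1048 (PBS) against 282 CPM (CBC) for MIA PaCa-2, and 216 against 80.9 CPM for PANC-1. It fell by 1.65 on the log2 scale (standard error 0.20, adjusted p = 0.00949). FADS3, which desaturates sphingoid bases, stood at 24.9 (PBS) against 82.4 CPM (CBC) for MIA PaCa-2, and 12.0 against 28.3 CPM for PANC-1, and rose by 1.49 (standard error 0.26, adjusted p = 0.0237). MBOAT1 and MBOAT2, which place monounsaturated acyl chains in phospholipids, had log2 fold changes over both lines of 1.35 and -0.74 and were not called by edgeR (adjusted p = 0.0587 and 0.141).

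Of the 16 peroxidation enzymes, 6 were abundant enough to be tested and edgeR called 0, although 2 had an unadjusted p under 0.05 and DESeq2 called 1 higher and 0 lower (ALOXE3). ALOXE3, an epidermal lipoxygenase that acts on hydroperoxides, stood at 2.29 (PBS) against 39.2 CPM (CBC) for MIA PaCa-2, and 7.78 against 16.9 CPM for PANC-1. Its log2 fold change over both lines was 2.55 (standard error 0.68, adjusted p = 0.0806 in edgeR and 0.0169 in DESeq2, and 1.85e-09 in edgeR without a filter on low counts). PEBP1, a scaffold that binds ALOX15, had log2 fold changes of -0.91 and -0.089. ALOX12B, another lipoxygenase, was also higher with CBC but at few counts, 1 against 37 in MIA PaCa-2 and 12 against 33 in PANC-1 (adjusted p = 0.173 in edgeR). ALOX15 was not tested, with 3 (PBS) and 4 counts (CBC) in MIA PaCa-2 and 0 in PANC-1. ALOX5 had no count in any library.

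Around GPX4, 2 of 14 tested glutathione peroxidases and genes of selenoprotein synthesis rose and 0 fell, 4 having an unadjusted p under 0.05, and DESeq2 called 2 lower (GPX8 and LRP8, at -0.72 and -0.82 in the edgeR fit). SEPHS2, which makes the selenium donor for GPX4 and other selenoproteins, stood at 72.8 (PBS) against 295 CPM (CBC) for MIA PaCa-2, and 91.0 against 278 CPM for PANC-1. Its log2 fold change over both lines was 1.82 (standard error 0.21, adjusted p = 0.00914 in edgeR). TXNRD1, the selenoprotein thioredoxin reductase, stood at 493 (PBS) against 1069 CPM (CBC) for MIA PaCa-2, and 608 against 1310 CPM for PANC-1, and rose by 1.12 (standard error 0.16, adjusted p = 0.0158). GPX1, a relative of GPX4 that acts on soluble peroxides, was at 0.22 (adjusted p = 0.601).

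Around AIFM2, edgeR called 0 of 17 genes of coenzyme Q synthesis and of quinone or vitamin K reduction, although 5 had an unadjusted p under 0.05 and DESeq2 called 0 higher and 2 lower (STARD7 and VKORC1L1). Their median was -0.37 in MIA PaCa-2 and -0.051 in PANC-1. COQ3 and PDSS1, enzymes of coenzyme Q synthesis, had log2 fold changes of -1.02 and -1.14 in MIA PaCa-2 and of -0.87 and -0.64 in PANC-1 (adjusted p = 0.147 and 0.184), the first of them -0.95 with library totals as the scaling. NQO1, a quinone reductase, stood at 459 (PBS) against 450 CPM (CBC) for MIA PaCa-2, and 145 against 254 CPM for PANC-1 (adjusted p = 0.371).

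Around DHODH, 1 of 10 genes of pyrimidine synthesis fell and 0 rose, 4 having an unadjusted p under 0.05, and DESeq2 called 3 lower (TYMS, UMPS and CTPS1). TYMS, thymidylate synthase, stood at 298 (PBS) against 91.2 CPM (CBC) for MIA PaCa-2, and 181 against 31.9 CPM for PANC-1 (log2 fold change over both lines -2.10, standard error 0.26, adjusted p = 0.0108 in edgeR). UMPS, which follows DHODH in the pathway, was at -0.65 and -0.79 and was called by DESeq2 alone (adjusted p = 0.109 in edgeR and 0.0254 in DESeq2). Around GCH1, edgeR called 0 of 6 genes of tetrahydrobiopterin metabolism and so did DESeq2, 1 having an unadjusted p under 0.05 in edgeR. SPR, which completes tetrahydrobiopterin synthesis, was at -0.56 and -0.85 (adjusted p = 0.140). PCBD2, a carbinolamine dehydratase that recycles tetrahydrobiopterin, was at 0.46 and 0.83 (adjusted p = 0.243).

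Around SAT1, 2 of 13 polyamine genes rose and 0 fell, 4 having an unadjusted p under 0.05, and DESeq2 called 1 lower (AMD1, of polyamine synthesis, at -0.81 in the edgeR fit). SMOX, spermine oxidase, stood at 25.3 (PBS) against 100 CPM (CBC) for MIA PaCa-2, and 35.5 against 74.1 CPM for PANC-1 (log2 fold change over both lines 1.53, standard error 0.29, adjusted p = 0.0292 in edgeR). SAT2, a paralog of SAT1, stood at 25.1 (PBS) against 73.5 CPM (CBC) for MIA PaCa-2, and 22.6 against 50.8 CPM for PANC-1 (log2 fold change over both lines 1.37, standard error 0.24, adjusted p = 0.0258 in edgeR). Both passed the threshold of 1 in each line, which SAT1 did in MIA PaCa-2. ODC1, which opens polyamine synthesis, had log2 fold changes of 0.052 and 0.16.

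Around PTGS2, 1 of 8 tested genes of prostanoid synthesis rose and 0 fell, 2 having an unadjusted p under 0.05. PLA2G4C, a cytosolic phospholipase A2, stood at 2.16 (PBS) against 55.3 CPM (CBC) for MIA PaCa-2, and 0.572 against 4.72 CPM for PANC-1 (log2 fold change over both lines 4.04, standard error 0.48, adjusted p = 0.00949 in edgeR). The PANC-1 control rests on 13 counts, and its log2 fold change there was 2.88, or 1.86 from the deposited CPM with a pseudocount of 1. PTGES3, a prostaglandin E synthase and co-chaperone, had log2 fold changes of -0.58 and -0.52 (adjusted p = 0.126 in edgeR and 0.0334 in DESeq2).

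**Figure D4:**
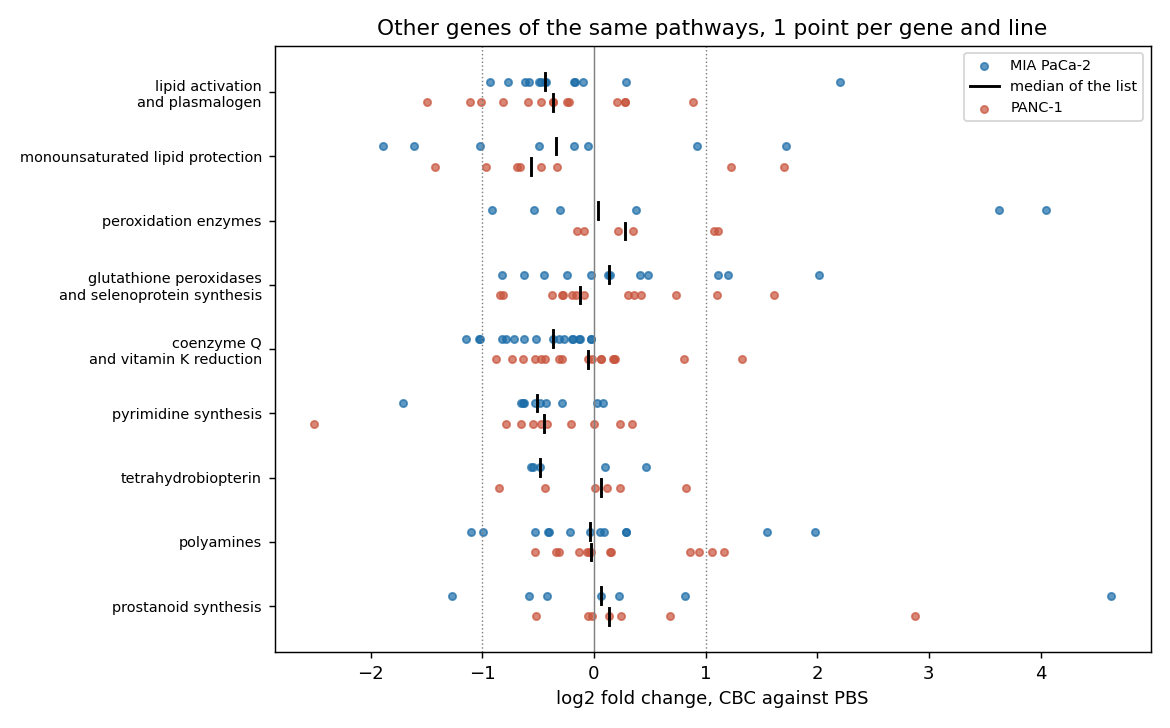
Log2 fold change of CBC against PBS for the tested genes of the 9 pathway lists, 1 point per gene in MIA PaCa-2 (blue) and PANC-1 (red), with black ticks at each list's median and dotted lines at 1 and -1. PLA2G4C lies farthest to the right in both lines (4.63 and 2.88), and TYMS lies farthest to the left in PANC-1 (-2.50).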

How the data were processed

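Poly(A) RNA from MIA PaCa-2 and from PANC-1, each with PBS or CBC for 24 h, was sequenced as 1 library per condition. The authors removed adapters and low-quality reads with cutadapt 2.7, used STAR for alignment to GRCh38, and counted with HTSeq on the Ensembl 89 annotation. The STAR version and the counting mode are not given in the sources used here. The authors deposited raw counts per gene, which were used here, and a normalized signal per library, which equals these counts over TMM-scaled library sizes (CPM; largest relative difference 6.84e-09) and served as an alternative.

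Libraries were grouped by their titles. Within a line, log2 CPM values were computed with edgeR 4.0.16 under R 4.3.3 (prior count 2) and subtracted, without a test; scaling was by the trimmed mean of M-values (TMM) of the 4 libraries. CBC over both lines, and the line effect, came from edgeR's quasi-likelihood fit with line and treatment as terms, its own filter, and TMM on the genes kept. A change over both lines is the treatment coefficient of that fit, not the plain average of the values within each line. Genes were called at a Benjamini-Hochberg adjusted p under 0.05 over all genes tested. The common coefficient of biological variation was 23.0%. Pairing is by cell line, and deviations of paired libraries from their treatment means correlated at 0.923 across genes. DESeq2 1.42.0 (Wald test), other scalings, filters and prior counts were alternatives, and the functions were tested on simulated data. GENCODE release 44 (GRCh38), with a model for 57392 of 58233 identifiers, gave positions, lengths and overlaps. Upstream sequences came from RefSeq.

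The 10 genes and the pathway lists were chosen with earlier results of these data known. In each list, the genes named were the 2 with the largest mean change among those averaging 10 CPM or more and moving one way in both lines, and any called among the 3 smallest p. The 3 profiles nearest to the gene with the largest mean change, and genes overlapping exons of the 10, were also named. MBOAT1, MBOAT2, ELOVL7, ALOX5, ALOX12B, ALOX15, GPX1, NQO1 and ODC1 were added after their values were seen, as were those called by DESeq2 alone. 1 further gene first placed in the pathway lists was left out of them and is not reported here.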

Additional observations from a re-analysis of the deposited data

Results flagged for a closer look

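ISG15, named above for its likeness to SAT1, had log2 fold changes of opposite sign in the lines. Each compares single libraries and its interval covers counting error only, so a fall in PANC-1 was not tested. It was higher with CBC in MIA PaCa-2 (log2 fold change 3.82, counting interval 3.65 to 4.02) and lower in PANC-1 (-0.24, -0.40 to -0.088). The responses differ by 4.07 with a counting standard error of 0.12, and this difference between the lines was not tested.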

How the results depend on the processing

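Within a line, all 180 recomputed log2 fold changes of the 9 tested genes kept their side of the threshold of 1 under the other scalings, prior counts, filters and the deposited CPM. Without a filter, 2 of the 10 genes were higher in PANC-1, PTGS2 with its 3 counts being included. Over both lines, AIFM2 (adjusted p 4.01e-08 to 0.0422) and LPCAT3 (3.34e-05 to 0.0454) were called under every alternative but the model without the replicate block for cell line. Without that block edgeR called 0 of the 10 genes higher, 0 lower and 0 of all genes, with 354 genes at an unadjusted p under 0.05. DESeq2 called 2 of the 10 higher (with POR) and 2 lower (with ACSL3). For CBC over both lines it called more of all genes than the main edgeR test, 1371 of 13492 tested against 771 of 16381. Without a filter beyond 1 count, 3 were higher (SAT1 and POR among them) and 2 lower, and 2063 genes were called, FADS2, ALOXE3, ISG15, DNAJB9 and ZNF165 among them. SAT1 was level and ISG15 was not higher in PANC-1, so their calls do not show a response shared by the lines. A minimum of 1 CPM in 2 libraries left 461 calls among fewer genes tested. TMM over all rows, chosen after seeing the data, gave 659. Apart from genes entering or leaving with a filter, the cause of these shifts was not tested.

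The counts of all genes past a log2 fold change of 1 moved with the filter. For MIA PaCa-2 they went from 1608 higher and 1256 lower to 3249 and 2567 without one, and to 1039 higher with 1 CPM in both libraries or 995 with 5 CPM in 1. For PANC-1 they went from 1087 and 991 to 2537 and 2310 without one, and to 633 higher with 5 CPM, or 680 with the deposited CPM and a pseudocount of 1. The 18 recomputed line effects of the 9 genes kept their calls. By the longest transcript in place of joined exons, 9 of 40 ranks by TPM moved. Leaving out 1 library leaves the test over both lines without a residual degree of freedom, so it was not run. Depth limits PTGS2 and GCH1 most.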
